A study of Homo sapiens with 6 samples.

Results

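The kinase complex mTORC1 and the genes that restrain or serve it were examined at the RNA level in A431 cells, a human squamous carcinoma line, after knockdown of ARID1A, the DNA-binding subunit of the BAF chromatin remodelling complex. The 10 genes described are DDIT4, SESN1, SESN2, SESN3, DEPTOR, TSC1, TSC2, RRAGD, RPS6KB1 and EIF4EBP1, taken by gene symbol from the 19421 genes on one common scale, and each was found once. The shARID1A group is A431 cells expressing an shRNA against ARID1A (3 samples), and the shCONTROL group is A431 cells expressing a control shRNA (3 samples). All cells were grown in DMEM with FBS, and the labels give neither a time after shRNA delivery nor the number of different shRNAs or clones. RNA was measured by sequencing and given as FPKM, a read number scaled to gene length and to the sample's sequencing depth.

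mTORC1 promotes protein synthesis and cell growth when amino acids, growth factors and energy are sufficient. Growth factor signals reach it through the small GTPase RHEB, which the TSC1-TSC2 complex switches off, and amino acids reach it at the lysosome through the Rag GTPases, which are under the control of the GATOR complexes. DDIT4 (REDD1) acts through the TSC complex and the sestrins act through GATOR2, so stress-induced transcription of these genes lowers mTORC1 activity. RNA levels do not measure the activity of the kinase, which is set largely by phosphorylation and by protein binding.

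The samples held between 31658040 and 36453744 assigned reads. ARID1A itself stood at 6.70, 7.62 and 7.31 FPKM in the shARID1A samples and at 22.8, 22.8 and 23.8 FPKM in the shCONTROL samples, so every sample matched its label. Of 10 squamous epithelial markers, 9 exceeded 1 FPKM in at least 1 sample, and only KRT14 stayed under 1 FPKM in all 6. KRT5, DSP, TP63 and CDH1 were lower in shARID1A than in shCONTROL samples without overlap. KRT5 had 44.6 to 45.8 FPKM in shARID1A samples and 59.5 to 96.5 FPKM in shCONTROL samples. The groups overlapped for the other squamous markers. They also overlapped for the sum, 1652 to 2121 FPKM in shARID1A samples and 1779 to 2192 FPKM in shCONTROL samples. Of the fibroblast, immune and endothelial markers, 10 of 13 stayed under 1 FPKM in all 6 samples. The exceptions were COL1A1, CD68 and LUM. The summed level of the 6 fibroblast markers was 10.3 to 12.5 FPKM in shARID1A samples and 6.56 to 8.96 FPKM in shCONTROL samples. LUM was the largest part of that sum, with 8.96, 7.39 and 9.96 FPKM in shARID1A samples and 4.08, 3.88 and 5.97 FPKM in shCONTROL samples. COL1A1 had 2.34, 2.70 and 2.25 FPKM in shARID1A samples and 2.39, 3.13 and 2.82 FPKM in shCONTROL samples. The other 4 stayed under 1 FPKM. The part of these marker differences in the results below was not tested. On principal components of the tested genes, shARID1A replicate 3 lay apart from the other samples on the second component (25.0% of the variance). Separate cultures are not stated for the replicates, and the p-values therefore reflect sample-to-sample spread that may be technical. In bulk RNA, fewer cells with a transcript and less transcript per cell cannot be told apart.

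DDIT4 and SESN2, a pair of stress-induced inhibitors of mTORC1, were lower in ARID1A-knockdown cells, and they were the 2 of 8 tested genes that passed. A gene was tested when its mean over the 6 samples reached 1 FPKM, which left SESN3 and RRAGD as values without a test. The test was limma on log2(FPKM + 1) over 11599 genes, with Benjamini-Hochberg adjustment and a threshold of 0.05. Log2 fold changes below are shARID1A minus shCONTROL on that scale, where the pseudocount of 1 shrinks the change of genes at low levels. By the same test 16.8% of all genes tested passed, 10.9% as lower and 5.85% as higher, so a count of 2 in 8 is close to what the transcriptome as a whole gave. The median log2 fold change was -0.27 over the 8 tested genes and -0.08 over all genes tested. The split between lower and higher genes was 1265 and 679 as deposited, and 831 and 947 after quantile normalization. The groups did not overlap for DDIT4, SESN2 and TSC1, that is for 3 of the 8, all in the lower direction, and 25.4% of all genes tested were lower without overlap (38.8% in either direction).

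**Figure D1:**
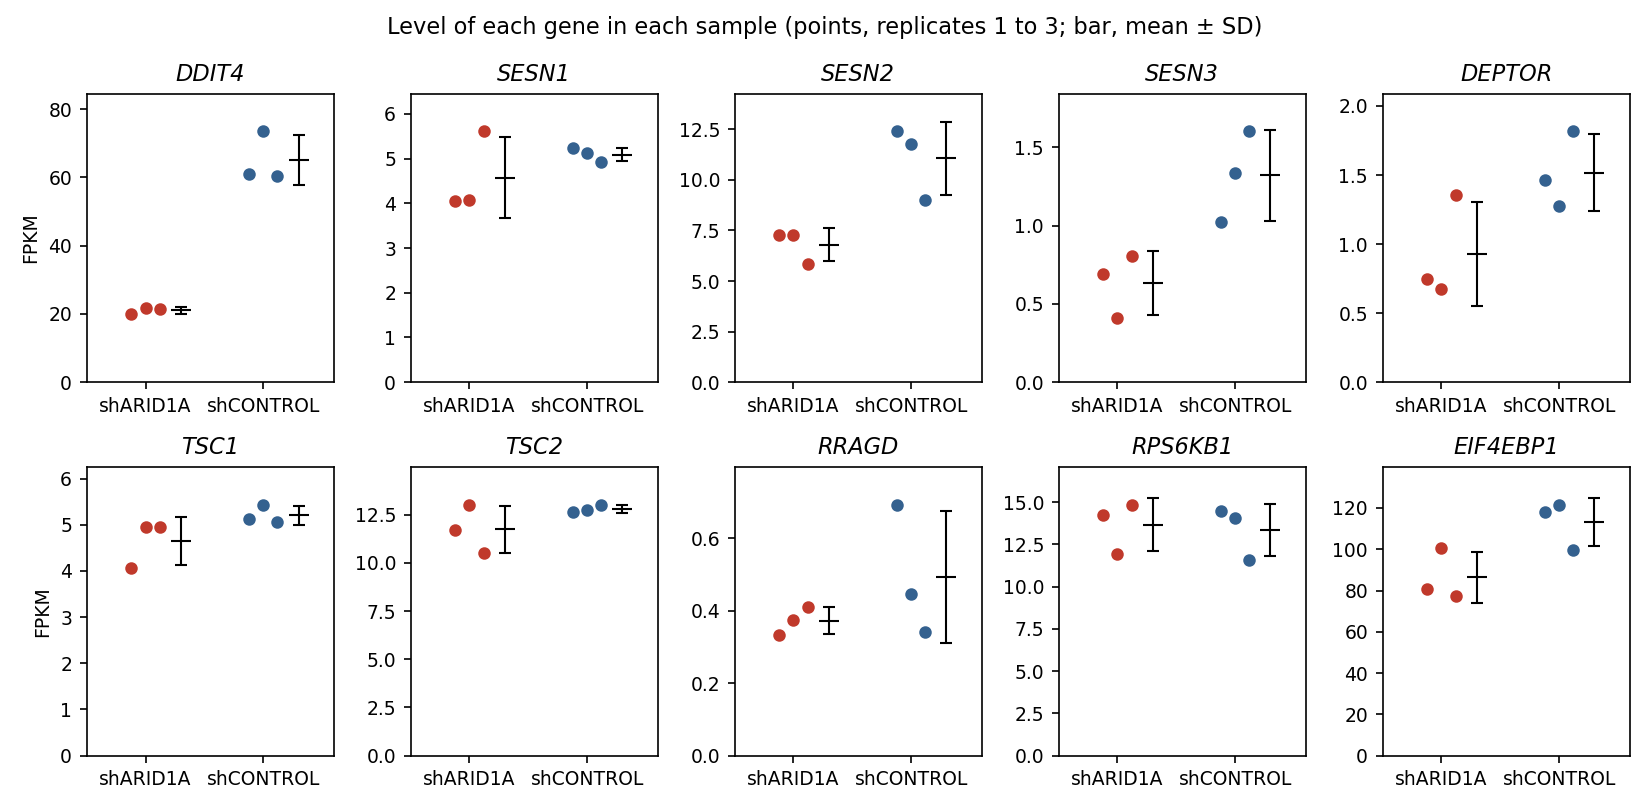
FPKM of each of the 10 genes in each sample (points, replicates 1 to 3 from left to right within a group), with the mean and SD (n = 3) beside them; each panel has its own axis from 0. DDIT4, SESN2, SESN3 and TSC1 have no shARID1A sample above the lowest shCONTROL sample, and the other 6 genes overlap.

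DDIT4 (gene ID 54541), whose protein is induced by hypoxia, amino acid shortage and DNA damage and inhibits mTORC1 through the TSC complex, had 19.9, 21.8 and 21.4 FPKM in the shARID1A samples and 61.0, 73.6 and 60.5 FPKM in the shCONTROL samples. The 3 knockdown samples lay close together, and the highest of them was far below the lowest control. The mean was 21.0 ± 1.02 FPKM in shARID1A cells and 65.0 ± 7.38 FPKM in shCONTROL cells (SD, n = 3 each), 67.7% lower. Its log2 fold change of -1.58 had a standard error of 0.10 (limma, adjusted p = 0.000243). Between 1243 and 4452 reads lay behind each value. Exons of DDIT4 overlap the antisense gene DDIT4-AS1 in GENCODE 29, and without a stated strand setting reads of such pairs cannot be told apart. Only 20 of the 11599 genes tested had a lower log2 fold change. That rank is on the log2(FPKM + 1) scale, which shrinks the change of genes at lower levels. The call held in all 17 alternatives, with adjusted p from 0.000109 to 0.00321.

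SESN2 (gene ID 83667), the sestrin that binds leucine and holds back GATOR2 when leucine is scarce, had 7.26, 7.27 and 5.85 FPKM in the shARID1A samples and 12.4, 11.8 and 9.02 FPKM in the shCONTROL samples. In both groups replicate 3 was the lowest, and the groups did not overlap. The mean was 6.79 ± 0.82 FPKM in shARID1A cells and 11.1 ± 1.80 FPKM in shCONTROL cells (SD, n = 3 each), 38.6% lower, with a log2 fold change of -0.62 and a standard error of 0.14 (limma, adjusted p = 0.0218). The call ended in limma fits that left out shARID1A replicate 1 (adjusted p = 0.0590), shCONTROL replicate 1 (0.0932) or shCONTROL replicate 2 (0.103), and when genes of any level were tested (0.0529).

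The promoters of DDIT4 and SESN2 are shown because these are the genes that passed and moved in the same direction. The 250 bases before each RefSeq start are given, from GRCh38.p14, at chr10:72273674-72273923 on the plus strand for DDIT4 and chr1:28259268-28259517 on the plus strand for SESN2. Capitals mark the letters CCAAT or ATTGG (the CCAAT box, read on both strands) and ACGTG or CACGT (the core of a hypoxia response element, both strands).
DDIT4: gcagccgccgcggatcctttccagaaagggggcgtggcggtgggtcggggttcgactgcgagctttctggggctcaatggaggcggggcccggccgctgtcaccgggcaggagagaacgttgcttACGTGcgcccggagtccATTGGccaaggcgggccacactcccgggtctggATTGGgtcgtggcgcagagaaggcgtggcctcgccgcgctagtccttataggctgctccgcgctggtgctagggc
SESN2: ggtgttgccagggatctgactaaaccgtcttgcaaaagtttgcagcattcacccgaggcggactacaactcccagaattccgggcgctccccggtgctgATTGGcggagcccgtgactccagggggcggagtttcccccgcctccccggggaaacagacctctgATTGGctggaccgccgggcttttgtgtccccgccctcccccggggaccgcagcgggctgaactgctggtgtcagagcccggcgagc

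RefSeq windows were at hand for 7 of the 10 genes (10 windows in all, since SESN1 has 3 and TSC2 has 2), and the entries for DEPTOR, EIF4EBP1 and RRAGD were missing. The windows of DDIT4 and SESN2 each held 2 CCAAT boxes, all in the reverse orientation ATTGG. In DDIT4 they began 108 and 75 bases before the start, and in SESN2 151 and 86 bases before it. Of all 35116 RefSeq windows of this length 32.01% held at least 1 such box and 9.53% at least 2. Of the 10 windows 4 held one, those of DDIT4 and SESN2 and 2 of SESN1, which did not pass. DDIT4 also held 1 ACGTG, beginning 125 bases before the start, a motif found in 18.5% of windows and, among the 10, also in TSC2, which did not pass. The letters TGATGNAA (an ATF4-type element, either strand), present in 3.14% of all windows, occurred in 1 of the 10, a TSC2 window. An E-box CACGTG, present in 6.34% of all windows, also occurred in 1 of the 10, again a window of TSC2. The FOXO core TGTTTAC (either strand, 2.98% of all windows) occurred in 0 of the 10. A match is a description of the letters and not a measured binding site.

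Neither of the other sestrins gave a call. SESN1 (gene ID 27244), a p53-induced and FOXO-induced sestrin, had 4.05, 4.07 and 5.61 FPKM in the shARID1A samples and 5.23, 5.12 and 4.93 FPKM in the shCONTROL samples. The groups overlapped, with shARID1A replicate 3 the highest of all 6. Its log2 fold change was -0.14 with a 95% interval of -0.44 to 0.16 (limma, adjusted p = 0.496), and the sign turned after quantile normalization (0.01). Without shARID1A replicate 3 the difference was -0.27 (limma, adjusted p = 0.0753).

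SESN3 (gene ID 143686), a FOXO target, stood at a low level of 0.689, 0.409 and 0.808 FPKM in the shARID1A samples and 1.03, 1.33 and 1.603 FPKM in the shCONTROL samples, with 131 to 546 reads behind each value. The groups did not overlap, and the mean was 0.636 ± 0.20 FPKM in shARID1A cells and 1.32 ± 0.29 FPKM in shCONTROL cells (SD, n = 3 each). Its mean over the 6 samples fell just short of 1 FPKM, so it was not tested. When genes of any level were tested, its log2 fold change of -0.51 had an adjusted p of 0.0761 (limma).

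Added up, the 3 sestrin genes gave 12.001, 11.7 and 12.3 FPKM in the shARID1A samples and 18.7, 18.2 and 15.6 FPKM in the shCONTROL samples. The sums did not overlap. SESN2 made up 60.5%, 61.9% and 47.7% of the sum in the shARID1A samples and 66.5%, 64.6% and 58.0% in the shCONTROL samples. These shares overlapped, and in shARID1A replicate 3, where SESN1 was high and SESN2 low, the SESN2 to SESN1 ratio was 1.04, against 1.79 in each of the other 2 knockdown samples and 2.37, 2.30 and 1.83 in the controls. SESN2 was the most abundant sestrin in each of the 6 samples and SESN3 the least.

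**Figure D2:**
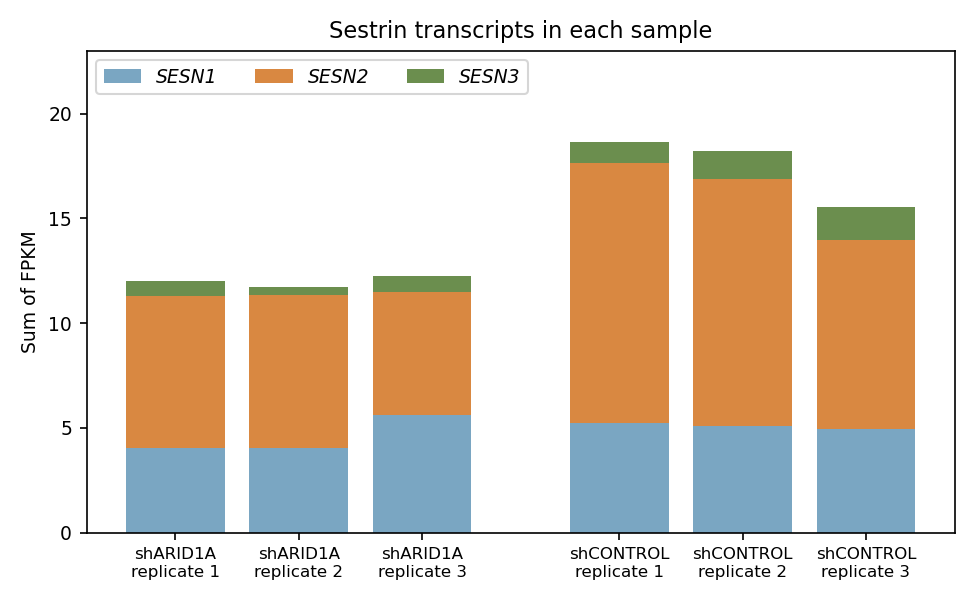
Sum of the FPKM of SESN1, SESN2 and SESN3 in each sample, stacked by gene. The 3 shARID1A bars end at 11.7 to 12.3 FPKM and the 3 shCONTROL bars at 15.6 to 18.7 FPKM, and SESN2 is the largest part of each bar.

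Neither subunit of the TSC complex among these genes passed the test. TSC1 (gene ID 7248, hamartin) had 4.06, 4.94 and 4.95 FPKM in the shARID1A samples and 5.11, 5.44 and 5.06 FPKM in the shCONTROL samples. The groups did not overlap, but shARID1A replicates 2 and 3 lay close under the controls, and the log2 fold change was -0.14 with a 95% interval of -0.40 to 0.12 (limma, adjusted p = 0.419), its sign turning after quantile normalization (0.01). TSC2 (gene ID 7249, tuberin, the GTPase-activating subunit that acts on RHEB) had 11.7, 13.0 and 10.5 FPKM in the shARID1A samples and 12.6, 12.7 and 13.0 FPKM in the shCONTROL samples. The groups overlapped, and the log2 fold change was -0.12 with an interval of -0.36 to 0.12 (limma, adjusted p = 0.453). The same limit from overlapping exons holds for TSC2 (NTHL1 and PKD1) and TSC1 (GFI1B), and on the opposite strand also for SESN1, SESN3 and DEPTOR, each with a noncoding gene.

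DEPTOR (gene ID 64798), a protein that binds and inhibits mTOR itself, was near the low end of the genes tested, with 0.749, 0.676 and 1.36 FPKM in the shARID1A samples and 1.46, 1.27 and 1.82 FPKM in the shCONTROL samples. Knockdown replicate 3 reached into the control range, the other 2 knockdown samples did not. The log2 fold change was -0.40 with an interval of -0.77 to -0.02 (limma, adjusted p = 0.129), on 58 to 166 reads a sample. Without shARID1A replicate 3 it was -0.55 and passed (limma, adjusted p = 0.0228).

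RRAGD (gene ID 58528), a Rag GTPase of the lysosomal amino acid branch and a known target of the TFEB and MITF family, had 0.334, 0.374 and 0.410 FPKM in the shARID1A samples and 0.693, 0.447 and 0.340 FPKM in the shCONTROL samples. With 58 to 108 reads behind each value it was the lowest of the 10 genes and was not tested. The groups overlapped, and the higher control mean rested on shCONTROL replicate 1, without which the log2 difference was -0.02 in place of -0.11.

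Neither the kinase nor the translation repressor that mTORC1 phosphorylates passed the test. RPS6KB1 (gene ID 6198), the S6 kinase, had 14.3, 11.9 and 14.8 FPKM in the shARID1A samples and 14.4, 14.0 and 11.6 FPKM in the shCONTROL samples. Its exons overlap AC005702.1 on the same strand. The groups overlapped over nearly their whole range, and the log2 fold change was 0.03 with an interval of -0.25 to 0.32 (limma, adjusted p = 0.879), with the sign turning without shCONTROL replicate 3 (-0.06) or shARID1A replicate 3 (-0.03). EIF4EBP1 (gene ID 1978), the 4E-BP1 repressor of cap-dependent translation and an ATF4 target, was the most abundant of the 10 genes, with 80.9, 101 and 77.4 FPKM in the shARID1A samples and 118, 122 and 99.9 FPKM in the shCONTROL samples. Only shARID1A replicate 2 and shCONTROL replicate 3 overlapped.

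EIF4EBP1 averaged 86.3 ± 12.5 FPKM in shARID1A cells and 113 ± 11.7 FPKM in shCONTROL cells (SD, n = 3 each). The log2 fold change was -0.39 with an interval of -0.68 to -0.11, which missed the threshold (limma, adjusted p = 0.0646). With the replicate number as a block it passed (limma, adjusted p = 0.0208), as it did without shARID1A replicate 2 (0.0228). RefSeq lists pseudogenes of it, EIF4EBP1P1 and EIF4EBP1P2, with which reads may be shared.

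**Figure D3:**
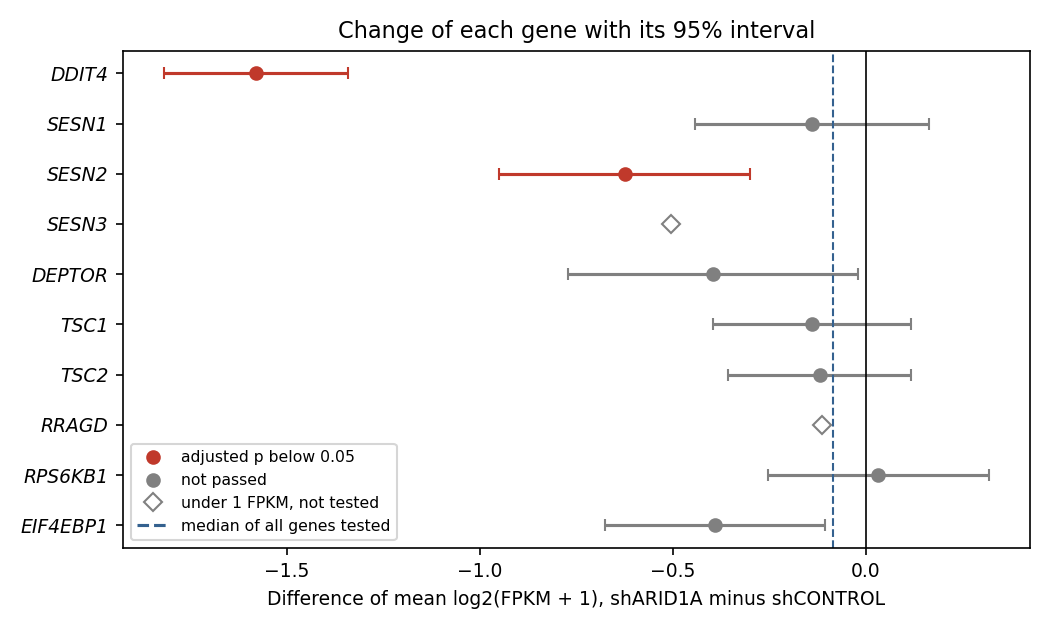
Log2 fold change (shARID1A minus shCONTROL, difference of mean log2(FPKM + 1)) of each of the 10 genes, with its 95% interval for the 8 tested. DDIT4 (-1.58) and SESN2 (-0.62) passed, the intervals of SESN1, TSC1, TSC2 and RPS6KB1 include 0, and SESN3 and RRAGD (diamonds) were not tested.

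The order of the levels per length was the same in both groups: EIF4EBP1, DDIT4, RPS6KB1, TSC2, SESN2, TSC1, SESN1, DEPTOR, SESN3 and RRAGD. DDIT4 did not overlap EIF4EBP1 or RPS6KB1 in either group, nor did SESN2 overlap TSC2 or TSC1. RPS6KB1 and TSC2 overlapped in both groups, as did TSC1 and SESN1 and also DEPTOR and SESN3. SESN3 and RRAGD overlapped in shARID1A cells and not in shCONTROL cells. DDIT4 stood above 85.5% of the genes tested in mean level, EIF4EBP1 above 94.7% and DEPTOR above 2.66%.

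Around these genes, 7 lists of other pathway genes held 69 tested genes, of which 16 fell and 0 rose (limma, adjusted p below 0.05), that is 23.2% lower against 10.9% over all genes. The lists were chosen with earlier results of these data known, so the difference between these shares is a description and not a test. They include the 13 transcription factors described below, of which 5 fell. The same 10.9% stands beside the count of each list below. The median log2 fold change of the 69 genes was -0.15. At an unadjusted p below 0.05, 1 was higher, and voom called 0 as higher. The number that passed was 4 without shCONTROL replicate 1 or 2, 8 without shARID1A replicate 1 and 10 without shCONTROL replicate 3, and was 25 without shARID1A replicate 3, where 1 of them, TELO2, an assembly factor of mTOR complexes, was higher (log2 fold change 0.28 over all samples, limma adjusted p = 0.177, and 0.0111 without that library). TELO2 is named after its values were seen. Of the 69 genes, 10 passed after quantile normalization. Over all genes, in either direction, 1944 passed in the main fit, and this number moved in the same alternatives. It was 748 without shCONTROL replicate 1, 587 without shCONTROL replicate 2 and 1408 without shCONTROL replicate 3. Without shARID1A replicate 1 it was 786, without shARID1A replicate 3 it was 3403, and after quantile normalization 1778. The shares of 23.2% and 10.9% are therefore those of the main fit only.

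The kinase complexes themselves gave no call. Of 10 subunits and assembly factors of mTORC1 and mTORC2, 0 passed by limma, with a median log2 fold change of -0.00 (to 2 decimals). At an unadjusted p below 0.05, 1 was lower and 1 higher, and limma-voom on recovered reads called 1 lower. The closest was RICTOR, the defining subunit of mTORC2, at 4.15 ± 1.002 FPKM in shARID1A cells and 6.38 ± 0.73 FPKM in shCONTROL cells (limma, adjusted p = 0.0519, and 0.0468 with the replicate block). It was 0.00681 without shARID1A replicate 3. TBC1D7, the subunit that stabilises the TSC complex, fell to 4.27 ± 0.67 FPKM in shARID1A cells, against 6.87 ± 0.54 FPKM in shCONTROL cells (log2 fold change -0.58, limma adjusted p = 0.0194). Its call was lost after quantile normalization (0.0621) and on leaving out shARID1A replicate 1 (0.0553), shCONTROL replicate 1 (0.0614) or shCONTROL replicate 2 (0.101). RHEB and RHEBL1 did not pass.

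Genes of the lysosomal amino acid branch held 5 calls. Of 12 Rag GTPases, Ragulator subunits and folliculin partners, 5 fell (RRAGA, RRAGB, LAMTOR2, LAMTOR3 and FLCN) and 0 rose, with a median log2 fold change of -0.37. RRAGA, which pairs with RRAGC or RRAGD to recruit mTORC1 to the lysosome, had 23.1, 24.2 and 23.1 FPKM in the shARID1A samples and 34.8, 33.3 and 37.1 FPKM in the shCONTROL samples (log2 fold change -0.56, limma adjusted p = 0.00528). RRAGB, its close paralog, averaged 1.69 ± 0.15 FPKM in shARID1A cells and 2.79 ± 0.16 FPKM in shCONTROL cells (limma, adjusted p = 0.0212). LAMTOR2, a Ragulator subunit that anchors the Rags, averaged 25.7 ± 1.73 FPKM in shARID1A cells and 36.9 ± 1.45 FPKM in shCONTROL cells (limma, adjusted p = 0.00910). Of these 3 calls, that of RRAGA alone held in all 17 alternatives. The calls of LAMTOR3 and FLCN were lost in 7 and 6 of the 17 alternatives, with adjusted p up to 0.139 and 0.150 (limma). LAMTOR2 missed the threshold without shCONTROL replicate 1 (0.0552) or 2 (0.0591), and RRAGB after quantile normalization (0.0855) and when any single library other than shARID1A replicate 3 was left out (0.0502 to 0.0985). In the whole list 1 gene fell without shCONTROL replicate 1 or 2, 2 without shCONTROL replicate 3 or shARID1A replicate 1, 3 without shARID1A replicate 2 and 7 without shARID1A replicate 3, and 2 fell after quantile normalization.

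Of 12 tested genes of GATOR, KICSTOR and the amino acid sensors, through which SESN2 acts, 0 passed by limma, with a median of -0.11; 2 were lower at an unadjusted p below 0.05, and voom called 1. Of 8 tested genes of LKB1 and AMPK, the energy-sensing branch that feeds into the TSC complex, 0 passed by limma, with a median of -0.17; 1 was lower at an unadjusted p below 0.05, and voom called 0. The closest was STRADA, the LKB1 partner (limma, adjusted p = 0.0508, 0.0403 with the replicate block and 0.0480 without shARID1A replicate 3).

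Of 11 tested substrates and effectors of mTORC1, 5 fell (PDCD4, ULK1, LPIN1, TFEB and TFE3) and 0 rose. The median log2 fold change of the 11 was -0.13, and 6 of them had a log2 fold change below 0. ULK1, the autophagy-starting kinase that mTORC1 inhibits, had 5.86, 6.47 and 7.32 FPKM in the shARID1A samples and 15.99, 19.4 and 22.8 FPKM in the shCONTROL samples (log2 fold change -1.43, limma adjusted p = 0.00106). PDCD4, an inhibitor of the helicase eIF4A that S6 kinase marks for degradation, had 3.01, 1.89 and 5.13 FPKM in the shARID1A samples and 10.9, 10.9 and 9.54 FPKM in the shCONTROL samples (log2 fold change -1.46, limma adjusted p = 0.00623). For both genes every knockdown sample lay below every control, and both calls held in all 17 alternatives. LPIN1, the phosphatidate phosphatase lipin 1, averaged 1.80 ± 0.18 FPKM in shARID1A cells and 3.37 ± 0.39 FPKM in shCONTROL cells (limma, adjusted p = 0.0108), and missed the threshold without shCONTROL replicate 1 (0.0576) or 2 (0.0595). TFE3 passed narrowly (limma, adjusted p = 0.0495) and missed in 10 of the 17 alternatives. TFEB passed (limma, adjusted p = 0.0306) and missed in 5 of them. Of this list 2 fell without shCONTROL replicate 1 or 2 and 3 without shCONTROL replicate 3 or after quantile normalization. The paralogs of the downstream genes RPS6KB1 and EIF4EBP1, RPS6KB2 and EIF4EBP2, had log2 fold changes of 0.18 and 0.21 and did not pass (limma, adjusted p = 0.280 and 0.169).

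**Figure D4:**
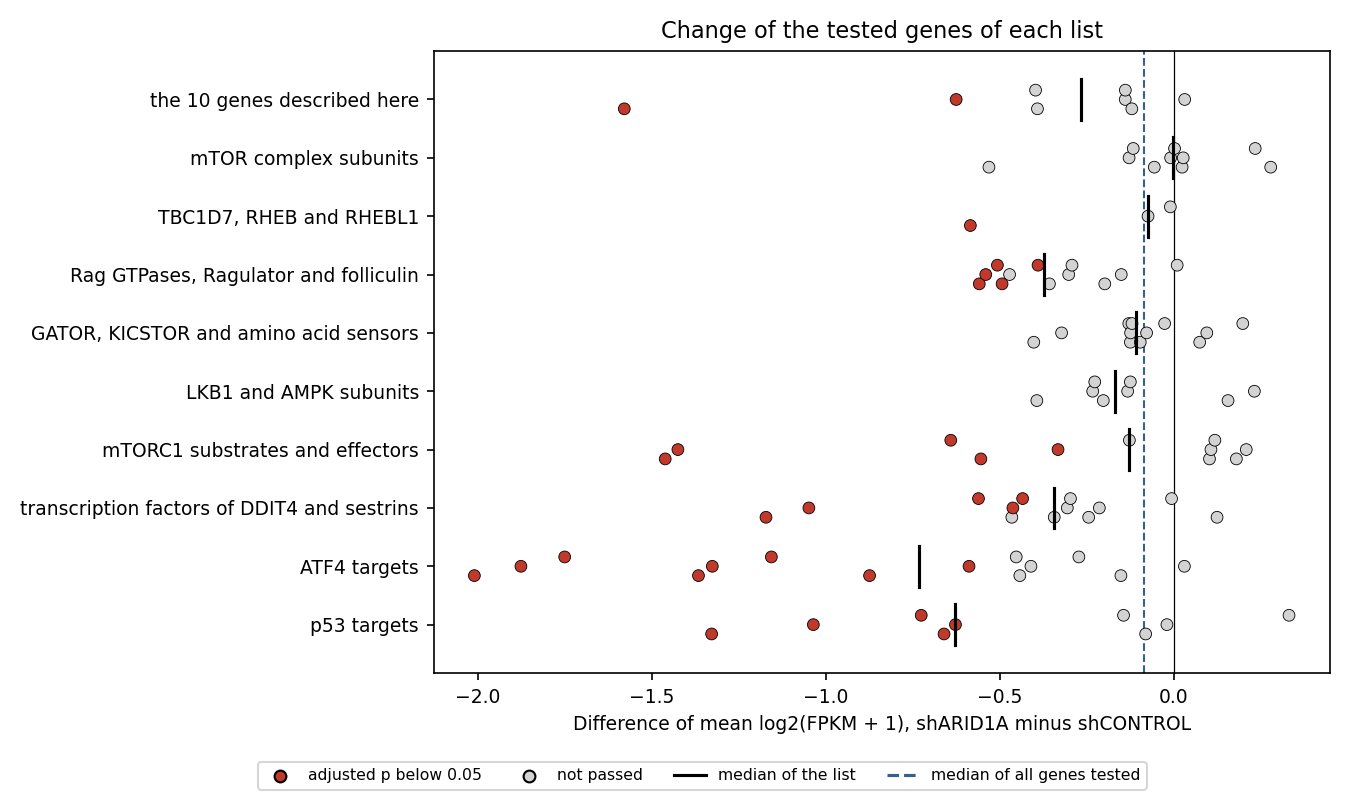
Log2 fold change (shARID1A minus shCONTROL, difference of mean log2(FPKM + 1)) of every tested gene of each list (points, red where the adjusted p was below 0.05), with the list's median as a black bar and the median of all genes tested (-0.08) as a dashed line. All red points lie left of 0, and the list of 12 Rag, Ragulator and folliculin genes has its median at -0.37.

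Among 13 transcription factors known to act on DDIT4 or the sestrins, 5 fell (DDIT3, TP63, EPAS1, FOXO4 and CEBPB) and 0 rose. DDIT3, the stress factor CHOP, had 11.2, 14.2 and 17.5 FPKM in the shARID1A samples and 32.8, 32.5 and 25.7 FPKM in the shCONTROL samples (log2 fold change -1.05, limma adjusted p = 0.00539). TP63, a p53 family factor that is also among the squamous markers, averaged 34.3 ± 2.25 FPKM in shARID1A cells and 47.5 ± 0.34 FPKM in shCONTROL cells (SD, n = 3 each). EPAS1, the hypoxia factor HIF-2alpha, averaged 70.0 ± 7.06 FPKM in shARID1A cells and 94.7 ± 3.58 FPKM in shCONTROL cells (SD, n = 3 each). The calls of TP63 and EPAS1 (limma, adjusted p = 0.0106 and 0.0198) ended when shARID1A replicate 1, shCONTROL replicate 1 or shCONTROL replicate 2 was left out, at 0.0667 and 0.107 or less. The calls of FOXO4 and CEBPB were lost in 7 and 5 of the 17 alternatives. Of this list 1 gene fell without shCONTROL replicate 1 or 2, 2 without shARID1A replicate 1, 3 without shARID1A replicate 2 and 8 without shARID1A replicate 3. ATF4, the factor that induces DDIT4 and SESN2 under amino acid shortage, did not pass at the RNA level, with 205, 213 and 190 FPKM in the shARID1A samples and 281, 281 and 215 FPKM in the shCONTROL samples (limma, adjusted p = 0.0850). It passed with the replicate block (0.0346), after quantile normalization (0.0496) and without shCONTROL replicate 3 (0.0239). ATF4 was chosen for mention after its values were seen.

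DDIT4 and SESN2 belong to the ATF4-induced genes, and of 14 others 8 fell and 0 rose. The 3 with the smallest p were ASNS, ATF3 and CHAC1, with log2 fold changes of -1.88, -1.75 and -2.01. SESN1 and SESN2 are also known p53 targets, and of 9 other tested p53 targets 5 fell and 0 rose. The 3 with the smallest p were CDKN1A, BBC3 and GADD45A, with log2 fold changes of -1.33, -1.04 and -0.63. The 6 genes named for their smallest p had adjusted p of at most 0.00544 by limma. A part of ATF4 or p53 in the lower DDIT4 and SESN2 was not tested. In the opposite direction FAS, the death receptor and a p53 target, averaged 7.86 FPKM in shARID1A cells and 6.03 FPKM in shCONTROL cells without overlap (log2 fold change 0.33, limma adjusted p = 0.0582). It passed as higher under upper quartile scaling (0.0421), after quantile normalization (0.0201) and without shARID1A replicate 3 (0.0404), and is named after its values were seen.

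Likeness over the 6 samples was measured by Pearson's r of log2(FPKM + 1) among 10774 other protein-coding genes. The genes closest to DDIT4 were BSDC1, MXD4 and DZANK1, with r from 0.998 to 0.999, and those closest to SESN2 were NFATC1, CUL7 and NDUFB10, with r from 0.997 to 0.999. All 6 were lower in shARID1A cells on average, which follows from their choice by likeness to genes that were lower there. The r was over 0.95 for 513 genes with DDIT4 and 307 with SESN2. All these genes share the same 6 samples and their division into groups.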

How the data were processed

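RNA was taken with TRIzol and libraries were made by Illumina's procedures, per the labels. HISAT2 2.0.5 and featureCounts 1.5.0-p1 are listed, per the submitters' processing notes; settings, strandedness and build are not stated in those notes. The authors deposited FPKM values with gene lengths. Of 19814 named genes, the 393 last listed have another scale and were left out. Reads recovered from FPKM and length were whole for 100% of values (tolerance 0.01 reads).

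Computed here were limma 3.58.1 fits (R 4.3.3, lmFit, eBayes with trend, two-sided) on log2(FPKM + 1), pseudocount 1 FPKM, without covariates, on the 11599 genes averaging 1 FPKM or more. The fit was tested on simulated counts with a fixed spread and no replicate effect, so that test does not cover such effects in these samples. Tables used Python 3.11.15. Members and lists were chosen with earlier results of these data known. Named besides the 10 genes were up to 3 passing genes with the smallest p in each list (the closest gene where 0 passed, of which 1 is not reported here), and the 3 genes most like DDIT4 and SESN2. Of the listed genes DDIT4L and BMT2 were not analysed here. Same-numbered samples deviated together from their group means (correlations across genes of 0.321, 0.187 and 0.315), so the numbers may pair the samples, from the data and not the labels. Alternatives were pseudocounts, filters, scalings, variance models, voom on recovered reads, the replicate block and leaving out each library.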

Additional observations from a re-analysis of the deposited data

How the results depend on the processing

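In 17 alternatives DDIT4 and ARID1A kept their direction and call. The number of the 10 genes that passed was 2, and 1 when genes of any level were tested; without each library in turn it was 1 to 3. The number of other pathway genes that passed was 16, and 10 with genes of any level or after quantile normalization; without each library it was 4 to 25. Over all genes it was 1944, and 587 to 3403 without each library. The signs of SESN1 and TSC1 turned after quantile normalization (0.00807 and 0.00884), and that of RPS6KB1 when single libraries were left out (-0.0605 to 0.122). Fits without a library have fewer degrees of freedom, and the highest counts, 3403 over all genes and 25 pathway genes, came without shARID1A replicate 3. The cause of these changes was not tested. The log2 difference of SESN3 was -0.97 with a pseudocount of 0.1 FPKM and -0.17 with 5 FPKM, and that of RRAGD -0.29 with 0.1 FPKM. SESN1, TSC1 and DEPTOR had no value at a minimum of 5 FPKM. With the replicate block 3 of the 10 genes passed, EIF4EBP1 being the addition (adjusted p = 0.0208), and among the other named genes RICTOR, STRADA and ATF4 were added; it changed no other call of a named gene. Depth limits RRAGD, DEPTOR and SESN3, with as few as 58, 58 and 131 reads.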
